A study of Homo sapiens with 4 samples.

Results

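HMGA2, SMARCD1, ERGIC3, PAPPA and ABCC2 are 5 genes whose messenger RNAs have been reported as targets of the microRNA miR-490-3p in cancers of other tissues. They were followed here in U87MG cells, a long-established line grown from a human glioma. The genes were chosen by name, with earlier results of these data known. Every probe set whose platform annotation gives exactly 1 gene symbol, that symbol being one of the 5, was kept. This gave 23 probe sets of the 49293 on the array, and 5 of the 18132 genes that have a single-symbol probe set. HMGA2 had 6 probe sets, SMARCD1 had 4, ERGIC3 had 3, PAPPA had 8 and ABCC2 had 2. No probe set with several symbols named one of the 5 genes (0 probe sets).

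One group of U87MG cells was transfected with PC-490, a plasmid that overexpresses miR-490, and the other with its control plasmid PCDNA. RNA was taken 48 h later, and 2 PrimeView 3' expression arrays were run per group, each from 100 ng of total RNA. Both groups had a plasmid, so a response common to both transfections cannot be seen. Transfection was transient in 1 cell line, the share of cells that took up the plasmid is not given in the labels, and the level of miR-490 was not analysed here, which leaves its overexpression unchecked by these arrays. The labels do not say whether the 2 arrays of a group came from separate cultures, and the p-values therefore reflect only how these arrays vary, which may be technical variation.

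A microRNA loads into an Argonaute protein and pairs, mainly through bases 2 to 8 (the seed), with sites in messenger RNAs, most often in the 3' untranslated region. Pairing lowers the stability or the translation of the messenger RNA, and an expression array reads only the first of these. The precursor of miR-490 gives a mature strand from each arm, and the 5 genes were reported as targets of the 3p strand. The sequences are shown because the 3p seed sets which messenger RNAs can pair. They are from RefSeq (GRCh38.p14, plus strand). In the precursor the capitals mark the mature strands, 5p first and then 3p, and in the mature strands they mark the seed.
MIR490 precursor, chr7:136903167-136903294: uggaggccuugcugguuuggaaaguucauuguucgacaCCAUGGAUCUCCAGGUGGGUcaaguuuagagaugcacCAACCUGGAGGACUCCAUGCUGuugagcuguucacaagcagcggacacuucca
miR-490-3p, chr7:136903242-136903263: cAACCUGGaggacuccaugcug
miR-490-5p, chr7:136903205-136903224: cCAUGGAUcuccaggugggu
A messenger RNA pairs with the whole 3p seed where it holds CCAGGUU, and with the whole 5p seed where it holds AUCCAUG. The strands do not share a seed, and 0 other entries among the 2545 mature strand entries of the RefSeq table carry either one. Sites in the 5 messenger RNAs were not analysed here.

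Marker levels, each at the gene's brightest single-symbol probe set, were read against the median level of all probe sets, 5.16 on the log2 scale of the deposited values. That is only a rough guide because probe sets differ in how strongly they bind. Read the same way, 10206 genes besides the 5 lay above this median, of 18132 in all. Of 7 measured markers of the glioma line, 6 were above it, with VIM at 13.9 and CD44 at 12.0, while NES was at 4.15. The leukocyte markers PTPRC, CD3E, CD14 and ITGAM lay between 2.54 and 3.38, and the hepatocyte marker ALB was at 2.52, whereas SERPINA1, which is also on the hepatocyte list, was at 9.78. Above the median were also 2 of 4 astrocyte markers (2.72 for AQP4 to 5.71 for GFAP), 1 of 5 epithelial markers (2.86 for CDH1 to 6.18 for CLDN4), 2 of 4 endothelial markers (3.12 for CDH5 to 6.96 for KDR) and 2 of 4 hepatocyte markers. The groups differed from each other about as much as replicates did: the SD of the log2 difference over all probe sets was 0.162 within the miR-490 pair, 0.182 within the control pair and 0.162 to 0.176 between groups.

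None of the 23 probe sets passed the test between the vectors (0 of 23; limma, Benjamini-Hochberg adjusted p under 0.05 over all 49293 probe sets), as was so for the table as a whole, where 0 were called (0% of those tested). The smallest adjusted p among the 23 was 0.900, which was also the smallest over the table. At an unadjusted p under 0.05 there were 2 of 23 probe sets (8.70%), both of HMGA2 and both lower with miR-490, against 5.15% of all probe sets in either direction and 2.48% lower and 2.66% higher. The log2 differences, miR-490 minus control, ran from -0.43 to 0.245 with a median of -0.055, beside a median of 0.00 and an SD of 0.12 over all probe sets. The 2 arrays of one group did not overlap with the 2 of the other in 8 of 23 probe sets (34.8%), 6 lower and 2 higher with miR-490, against 31.2% of all probe sets, 15.6% in each direction. The difference between the group means was larger than both replicate gaps in 6 of 23 probe sets, against 21.7% of all. For a single probe set, an exact two-sided permutation test of 2 arrays against 2 cannot give a p under 0.333. In such bulk RNA, fewer cells with a transcript and less transcript per cell cannot be told apart.

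**Figure D1:**
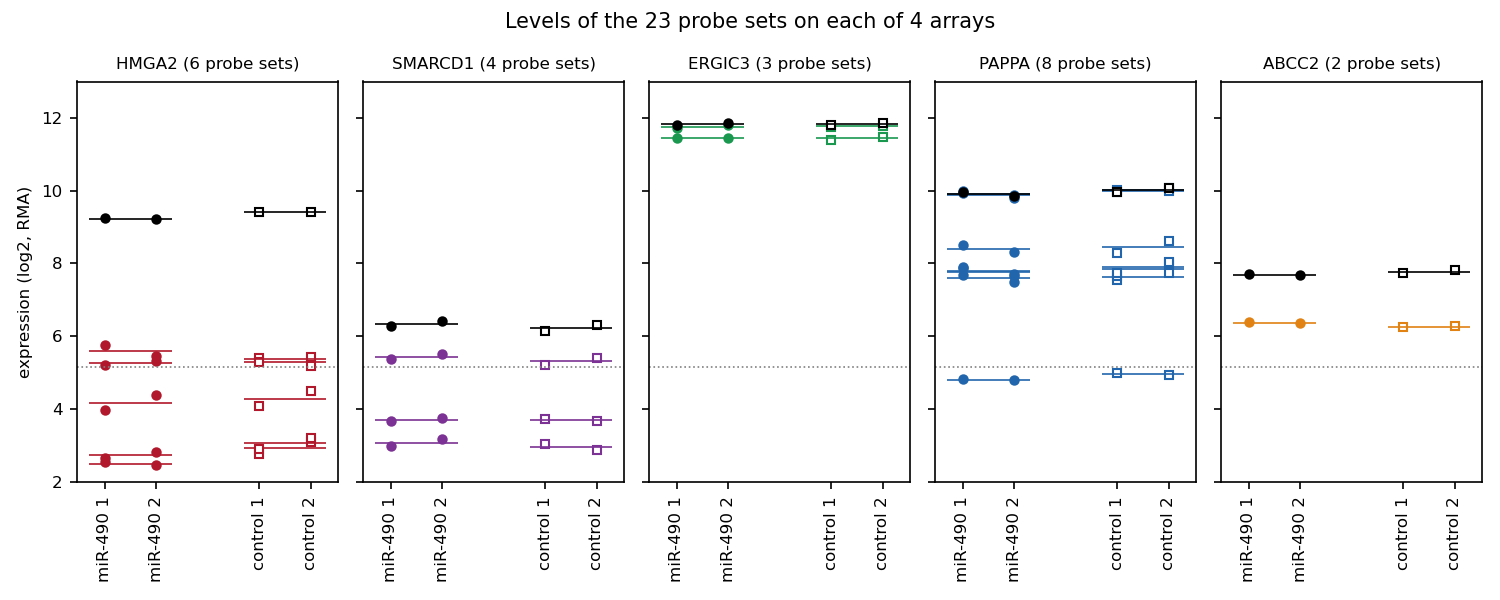
Level (log2, RMA) of each probe set on the 4 arrays, a panel per gene, with filled circles for miR-490 arrays, open squares for control arrays, horizontal lines for the group means and black for the gene's brightest probe set. The dotted line is the median level of all probe sets, 5.16. The 2 groups lie at nearly the same height in every panel, and the probe sets of HMGA2, SMARCD1 and PAPPA spread over several log2 units.

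The means were lower with miR-490 in 16 of 23 probe sets (69.6%) and higher in 7, where 47.8% of all probe sets had lower means. Those 16 are not independent, since 8 of them read PAPPA and 5 read HMGA2. The levels of different probe sets cannot be compared as amounts of transcript, because each set of probes binds with its own strength, so differences were tested only within a probe set, across arrays.

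HMGA2 encodes an architectural chromatin protein that binds the minor groove of AT-rich DNA through its AT-hooks. It is abundant in the embryo, is switched on again in many tumours, and is the textbook target of the let-7 microRNAs. Its brightest probe set, 11740656_a_at, which was designed on a current RefSeq transcript, stood at 9.25 and 9.21 on the miR-490 arrays, against 9.41 and 9.40 on the control arrays. Both miR-490 arrays lay below both control arrays, and the gap between the groups was larger than the gap between replicates, 0.04 and 0.01. The log2 difference was -0.175 (SE 0.0648, 95% interval -0.34 to -0.0055), a fold of 0.886, with an unadjusted p of 0.0453 and an adjusted p of 0.900 in limma. Among the 2803 other probe sets within 0.5 log2 units of its level, 57 (2.03%) had a larger difference in either direction.

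The other 5 HMGA2 probe sets did not give a common picture. The other one designed on a current RefSeq transcript, 11732032_a_at, read 5.22 and 5.31 on the miR-490 arrays, against 5.41 and 5.18 on the control arrays. These groups overlapped, and the log2 difference was -0.03 (95% interval -0.30 to 0.24). Of the other probe sets within 0.5 log2 units of its level, 77.3% had a larger difference in either direction. The probe set 11762147_at went the other way, at 5.75 and 5.46 with miR-490 against 5.29 and 5.43 in controls. Its groups did not overlap, but they differed by less than the miR-490 replicates did: the log2 difference was 0.245 (95% interval -0.075 to 0.57) and the replicate gap 0.29. The difference was 0.10 without miR-490 replicate 1 and 0.39 without miR-490 replicate 2. For this set 5.21% of the other probe sets at a like level had a larger difference in either direction.

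The 3 dimmest HMGA2 sets all had lower means with miR-490. The largest difference of any of the 23 probe sets was that of 11762061_at, which read 2.53 and 2.47 with miR-490 against 2.77 and 3.09 in controls. The log2 difference was -0.43 (SE 0.123, 95% interval -0.75 to -0.11), a fold of 0.742, with an unadjusted p of 0.0192 and an adjusted p of 0.900 in limma. Its control arrays differed by 0.32, and the value was -0.59 without control replicate 1 and -0.27 without control replicate 2. Among the 12012 other probe sets within 0.5 log2 units of its level, 40 (0.333%) had a larger difference in either direction. The set 11762062_x_at, designed on the same GenBank record, read 2.64 and 2.83 against 2.90 and 3.21, a log2 difference of -0.32, which was -0.475 without control replicate 1 and -0.165 without control replicate 2. These sets share their source sequence and count as 1 observation rather than 2, and both lay below the lower quartile of all probe sets, 3.18. For 11762062_x_at, 2.8% of the other probe sets at a like level had a larger difference. The remaining set, 11761705_a_at, read 3.96 and 4.37 against 4.08 and 4.48, with replicates 0.41 and 0.40 apart and a log2 difference of -0.115. At its level 38.8% of the other probe sets had a larger difference.

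The mean of the 6 HMGA2 sets was 4.89 and 4.94 on the miR-490 arrays, against 4.98 and 5.13 on the control arrays. That is a log2 difference of -0.1375 (limma adjusted p = 0.919 over 18132 genes). The brightest set itself had a negative difference in all of its alternatives, from -0.195 without miR-490 replicate 1 to -0.155 without miR-490 replicate 2, with no adjusted p under 0.643.

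**Figure D2:**
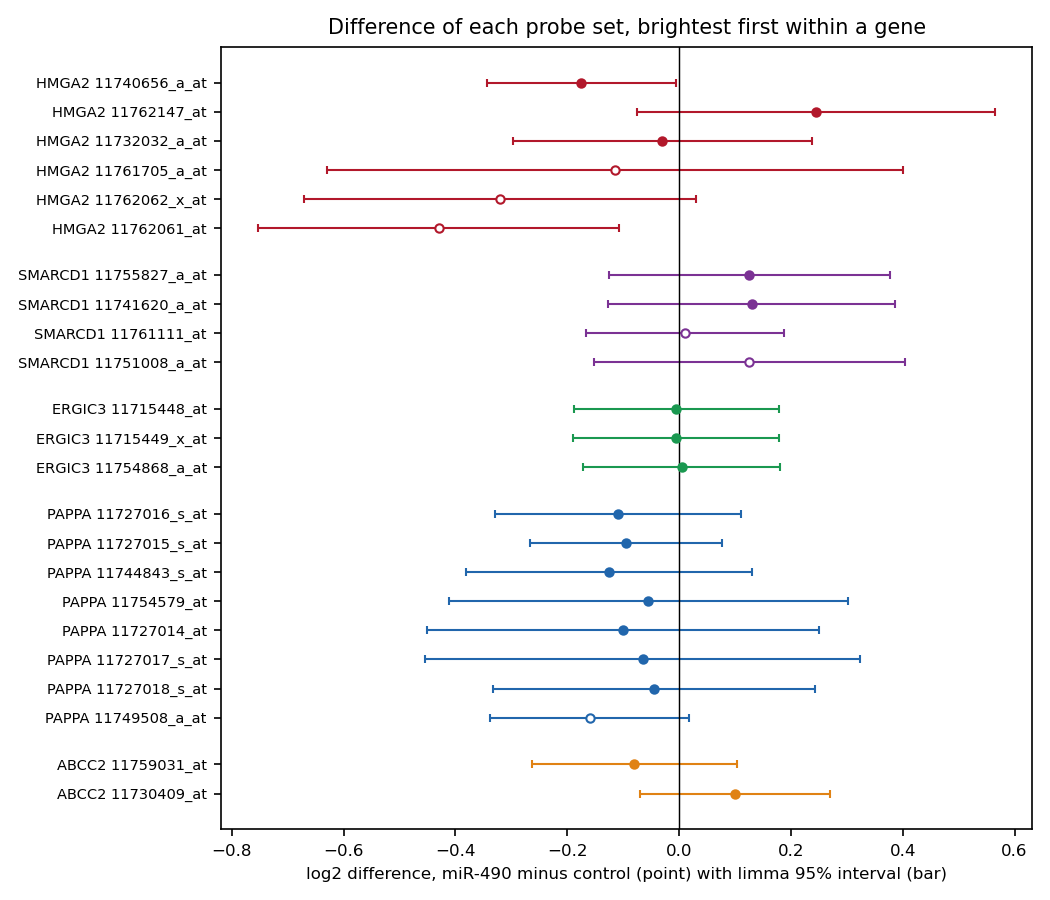
Log2 difference, miR-490 minus control, of each of the 23 probe sets (points) with its limma 95% interval (bars), brightest first within a gene, with open points for sets below the median level of all probe sets. The intervals of 2 HMGA2 sets lie wholly below 0, and every interval of SMARCD1, ERGIC3, PAPPA and ABCC2 spans 0.

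SMARCD1 encodes BAF60A, a subunit of the SWI/SNF complexes, which move nucleosomes and through which transcription factors reach chromatin. Its messenger RNA was reported as a miR-490-3p target in gastric cancer. In U87MG its 4 probe sets all had slightly higher means with miR-490, from 0.01 to 0.13 in log2 difference. The brightest, 11755827_a_at, read 6.28 and 6.41 with miR-490 against 6.13 and 6.31 in controls, a log2 difference of 0.125 (95% interval -0.13 to 0.38; limma adjusted p = 0.928). The next, 11741620_a_at, read 5.37 and 5.50 against 5.21 and 5.40, a log2 difference of 0.13 (95% interval -0.13 to 0.39).

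The groups overlapped in all 4 SMARCD1 sets, and in none was the difference larger than the gap between replicates (0 of 4). The highest of the 4 arrays was miR-490 replicate 2 in all 4 sets. Without control replicate 1 the difference of the brightest set was 0.035, and without control replicate 2 it was 0.215. Of the dim sets, 11751008_a_at read 2.97 and 3.17 against 3.03 and 2.86, and 11761111_at read 3.68 and 3.74 against 3.72 and 3.68. The lower limits of the 4 intervals lay at folds of 0.891 to 0.916.

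ERGIC3 encodes a membrane protein that cycles between the endoplasmic reticulum and the Golgi in the early secretory pathway. Its 3 probe sets showed the smallest differences of the 5 genes, each 0.005 in size. The brightest, 11715448_at, read 11.80 and 11.87 with miR-490 against 11.81 and 11.87 in controls. The set 11715449_x_at, designed on the same transcript, read 11.72 and 11.80 against 11.74 and 11.79, and 11754868_a_at read 11.44 and 11.44 against 11.40 and 11.47. Groups overlapped in all 3 sets, and the replicates of a group lay up to 0.08 apart.

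The log2 difference of the brightest ERGIC3 set was -0.005 (SE 0.0701, 95% interval -0.19 to 0.18; limma adjusted p = 0.996), which as a fold spans 0.878 to 1.13. Changes smaller than that could not be told from 0 on these arrays. Of the 478 other probe sets within 0.5 log2 units of its level, 86.6% had a larger difference. The 3 sets changed sign among the alternatives, and their differences stayed between -0.045 and 0.04 in all of them.

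PAPPA encodes a secreted metalloproteinase that cleaves IGFBP4 and so frees insulin-like growth factors near the cell surface. All 8 of its probe sets had lower means with miR-490, from -0.16 to -0.045 in log2 difference with a median of -0.0975, and all 8 intervals spanned 0. The brightest, 11727016_s_at, read 9.97 and 9.85 with miR-490 against 9.96 and 10.08 in controls, a log2 difference of -0.11 (SE 0.0841, 95% interval -0.33 to 0.11; limma adjusted p = 0.928). Here miR-490 replicate 1 and control replicate 1 stood side by side, and only the second arrays lay apart. The set 11744843_s_at repeated this, at 9.99 and 9.79 against 9.96 and 10.07.

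The groups did not overlap in 2 of the 8 PAPPA sets, where they did not in 31.2% of all probe sets. One was 11727015_s_at, at 9.93 and 9.88 with miR-490 against 10.01 and 9.99 in controls (log2 difference -0.095, 95% interval -0.27 to 0.077). The other was the dim set 11749508_a_at, at 4.82 and 4.79 against 5.0 and 4.93 (-0.16, -0.34 to 0.018). In both, the difference was larger than either replicate gap, as in 21.7% of all probe sets.

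The other 4 PAPPA sets followed single arrays more than groups. The set 11754579_at read 8.50 and 8.31 with miR-490 against 8.30 and 8.62 in controls, and 11727014_at read 7.89 and 7.70 against 7.74 and 8.05. The set 11727017_s_at read 7.88 and 7.66 against 7.66 and 8.01, and 11727018_s_at read 7.69 and 7.49 against 7.54 and 7.73. Control replicate 2 was the highest array in 6 of the 8 PAPPA sets, and miR-490 replicate 2 was the lowest, or tied for lowest, in 7. Without control replicate 2 these 4 sets had differences of 0.105, 0.055, 0.11 and 0.05, in the order named, while the other 4 sets stayed negative. Their values moved too: the brightest, 11727016_s_at, was at -0.05 without either second array, control or miR-490, and at -0.17 without either first array, and 11744843_s_at ran from -0.225 without miR-490 replicate 1 to -0.025 without miR-490 replicate 2.

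The mean of the 8 PAPPA sets was 8.33 and 8.18 with miR-490 against 8.27 and 8.44 in controls, and these groups overlapped (log2 difference -0.094; limma adjusted p = 0.954 over 18132 genes). The probe sets of one gene on the same arrays share the RNA and often the transcript, so 8 lower means are not 8 independent results. Probe sets of the antisense transcript PAPPA-AS1 carry their own symbol and were not counted; they were looked at after their values were known. One read 4.97 and 4.95 against 5.14 and 5.11, and the other read 4.42 and 4.31 against 4.07 and 4.36.

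ABCC2 encodes MRP2, an ATP-driven pump that exports glutathione and glucuronide conjugates, and its messenger RNA was reported as a miR-490-3p target in ovarian cancer cells resistant to cisplatin. Its 2 probe sets had opposite signs, each with groups that did not overlap. The brighter, 11759031_at, read 7.70 and 7.69 with miR-490 against 7.73 and 7.82 in controls, a log2 difference of -0.08 (SE 0.0699, 95% interval -0.26 to 0.10; limma adjusted p = 0.941). That difference was -0.125 without control replicate 1 and -0.035 without control replicate 2. The other, 11730409_at, read 6.38 and 6.35 against 6.25 and 6.28, a log2 difference of 0.10 (SE 0.0649, 95% interval -0.070 to 0.27; limma adjusted p = 0.914). Their mean was 7.04 and 7.02 with miR-490 against 6.99 and 7.05 in controls, a log2 difference of 0.01, so the direction for ABCC2 depended on the probe set.

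**Figure D3:**
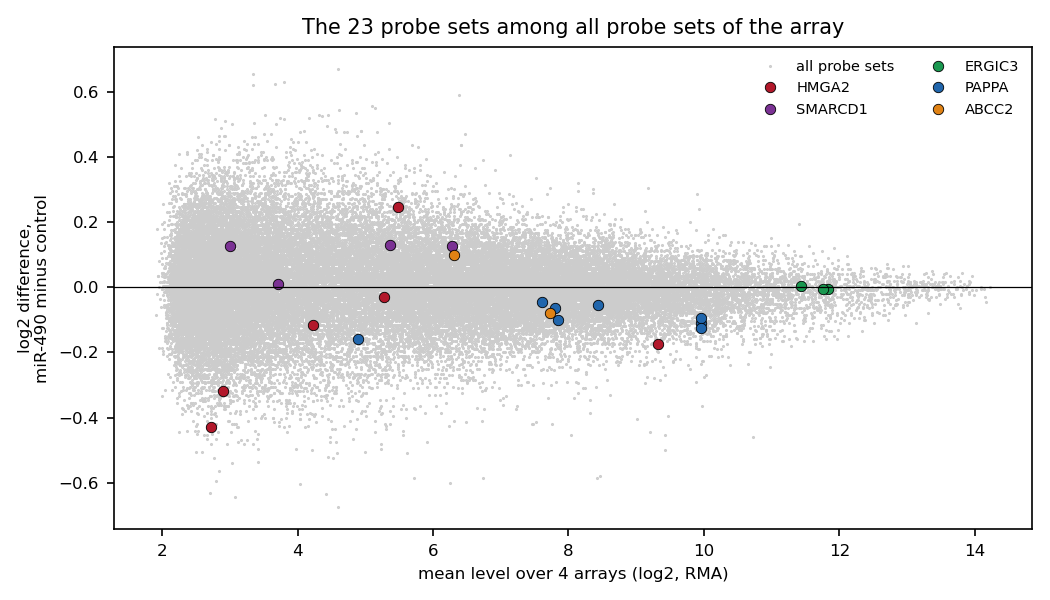
Log2 difference, miR-490 minus control, against the mean level over the 4 arrays (log2, RMA) for all 49293 probe sets (grey) and the 23 probe sets of the 5 genes (coloured). The grey cloud narrows as the level goes up, the brightest HMGA2 set sits near its lower edge and the 3 ERGIC3 sets sit on the zero line.

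Set side by side by their brightest probe sets, 4 of the 5 genes had lower means with miR-490, where 47.3% of all genes had, and SMARCD1 a higher one. The log2 differences were -0.175 for HMGA2, -0.11 for PAPPA, -0.08 for ABCC2, -0.005 for ERGIC3 and 0.125 for SMARCD1, with a median of -0.08, beside a median of 0.005 over the brightest sets of all 18132 genes. Groups did not overlap for HMGA2 and ABCC2, which is 2 of 5, where 32.6% of all genes did not overlap. Neighbours in this order lay within each other's intervals, and differences between the genes were not tested.

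The other genes reported as miR-490 targets were CCND1, CDK1, FOS, SMG1, TERF2, TGFBR1, TGIF2 and TNKS2. Of these 8 genes, 3 had lower means, where 47.3% of all genes had, and 5 had higher ones. Their median log2 difference was 0.055, and 0 passed the threshold in either direction (limma). The groups did not overlap in 6 of 8 genes, against 32.6% of all genes. Of these 6 genes, FOS, TGIF2 and TERF2 were higher with miR-490, and TNKS2, TGFBR1 and CCND1 were lower. TERF2 counts among them with a log2 difference of only 0.045. The list was chosen with earlier results of these data known, so its share without overlap is only a description. TNKS2, a tankyrase that acts at telomeres, had the lowest difference of the 8, close in size to that of the brightest HMGA2 set. It read 8.77 and 8.83 with miR-490 against 8.96 and 8.97 in controls, and its 3 other probe sets ran from -0.25 to -0.025. FOS, a subunit of the AP-1 transcription factor, lay on the opposite side, at 6.46 and 6.53 against 6.12 and 6.19. That log2 difference was 0.34, and its 3 other probe sets had larger ones, from 0.48 to 0.67. TGIF2, a repressor of TGF-beta responses, was at 4.09 and 3.92 against 3.65 and 3.79, but its other probe set had a log2 difference of -0.185. FOS and TGIF2 were the 2 of 8 with an unadjusted p under 0.05, both in the higher direction, where 4.77% of all genes had one in either direction.

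The TGF-beta receptor gene TGFBR1 and the cyclin gene CCND1 read 10.40 and 10.41 against 10.57 and 10.46, and 9.46 and 9.52 against 9.62 and 9.55. In both sets the miR-490 arrays lay below the control arrays, while the 2 other TGFBR1 sets had differences of -0.04 and 0.045 and the other CCND1 sets ran from -0.145 to -0.075. The mitotic kinase gene CDK1 read 8.33 and 8.24 against 8.28 and 8.15, and SMG1, a kinase of nonsense-mediated decay, read 8.99 and 8.76 against 8.73 and 8.89, with overlap in both. TERF2, which encodes a telomere-binding protein, read 7.70 and 7.69 against 7.67 and 7.63. CHRM2, a muscarinic receptor gene that hosts MIR490, was dim at 2.77 and 2.50 with miR-490 against 2.40 and 2.46 in controls (limma adjusted p = 0.900).

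The genes around each of the 5 gave no call either (0 genes past the adjusted threshold in each of the 5 partner lists, limma). Over all genes 47.3% had lower means, a share to set beside the sign counts of each list. In the HMGA and let-7 list, which holds HMGA1 and the let-7-regulated oncofetal genes, 5 of 8 genes had lower means and the median log2 difference was -0.0075. IGF2BP1, an RNA-binding protein of the embryo, read 3.73 and 4.03 with miR-490 against 4.20 and 4.16 in controls. HMGA1, the paralogue of HMGA2, read 8.56 and 8.55 against 8.59 and 8.81, and its 2 other probe sets were positive (0.06 and 0.115). LIN28A and LIN28B, which block let-7 maturation, read 2.06 and 2.26 against 2.09 and 2.52, and 3.55 and 3.33 against 3.27 and 3.50, with overlap in both.

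Of the other SWI/SNF subunits, 12 of 18 had higher means with miR-490 and 6 lower, where 47.3% of all genes had lower means. Their median log2 difference was 0.0425, on the same side as SMARCD1, and 0 of 18 had an unadjusted p under 0.05 (limma). SMARCD2, the paralogue of SMARCD1, read 7.36 and 7.32 against 7.21 and 7.18, and ARID2, a subunit of the PBAF form, read 7.86 and 7.86 against 7.75 and 7.78. PHF10, also of PBAF, read 7.11 and 7.17 against 7.03 and 7.07. In these sets the miR-490 arrays lay above the control arrays, though the 3 other PHF10 sets ranged from -0.07 to 0.055 in log2 difference, with 1 of the same sign. In the set of the ATPase SMARCA4, at 9.23 and 9.14 against 9.04 and 9.14, the groups met at 1 value. The groups did not overlap in 6 of the 18 subunits, near the 32.6% of all genes.

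In the list of the ER-Golgi intermediate compartment, 7 of 11 measured genes had lower means, 3 higher and 1 the same, with a median log2 difference of -0.02. LMAN1, the cargo receptor that marks the compartment, read 8.64 and 8.60 with miR-490 against 8.81 and 8.69 in controls, and its 5 other sets ranged from -0.165 to 0.245 in log2 difference. ERGIC1, a relative of ERGIC3, read 9.19 and 9.19 against 9.14 and 9.05, and TMED10, a receptor of coat vesicles, read 12.22 and 12.25 against 12.31 and 12.29. MCFD2, the partner of LMAN1, read 9.65 and 9.73 against 9.85 and 9.69. Signs were thus mixed within the compartment, and KDELR2 and SEC22B were not analysed here.

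In the PAPPA and IGF list the means were lower for 9 of 14 measured genes, and the median log2 difference was -0.0275. IGFBP5, an IGF-binding protein that PAPPA also cleaves, stood at 5.05 and 5.01 with miR-490 against 5.37 and 5.28 in controls (log2 difference -0.295, unadjusted p = 0.0100, limma adjusted p = 0.900). Its groups did not overlap, and its 5 other probe sets were all negative, from -0.28 to -0.04. The PAPPA inhibitor STC2 read 8.68 and 8.80 against 8.87 and 8.78, IGFBP2 read 2.60 and 2.67 against 2.63 and 2.95, and the growth factor IGF1 read 4.62 and 4.75 against 4.68 and 4.47. Groups overlapped in these 3 genes, and IGF2 was not analysed here.

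Of 7 measured efflux pumps related to ABCC2, 4 had higher and 3 lower means, with a median log2 difference of 0.02. ABCB1, the multidrug pump P-glycoprotein, read 6.16 and 6.20 against 6.01 and 6.12, and ABCC10 read 6.17 and 6.14 against 6.13 and 5.94. ABCC4, an exporter of cyclic nucleotides, read 8.09 and 8.07 against 8.15 and 8.22, and ABCC1, which exports glutathione conjugates, read 8.88 and 8.84 against 8.79 and 8.87. Of these 4 sets, named because their p was smallest, the groups overlapped only in that of ABCC1. Over all 7 pumps the groups did not overlap in 3, where 32.6% of all genes did not overlap. The 3 other ABCB1 sets ranged from -0.21 to 0.005 in log2 difference, with 1 of the same sign, and ABCC6 was not analysed here.

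**Figure D4:**
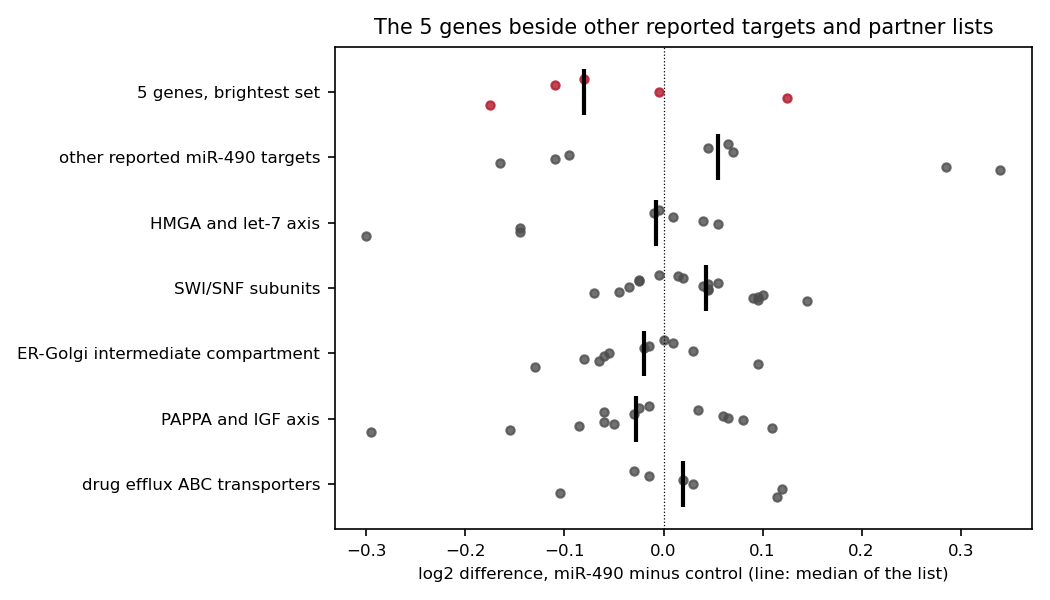
Log2 difference, miR-490 minus control, of the brightest probe set of each gene (points) in the 5 genes, the other reported miR-490 targets and the 5 partner lists, with a vertical line at each median. The medians lie between -0.08 and 0.055, and the points of every list fall on both sides of 0.

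Profiles like those of the 5 genes were sought among 10206 other genes above the median level, by Euclidean distance over the 4 arrays after each gene's mean was subtracted. Nearest to the brightest HMGA2 set were MGP, at 9.02 and 8.98 with miR-490 against 9.18 and 9.17 in controls (distance 0.00), and LY96, at a distance of 0.01. A distance of at most 0.1 was met by 643 genes for HMGA2, 318 for SMARCD1, 3180 for ERGIC3, 740 for PAPPA and 2356 for ABCC2. These counts depend on how flat each profile is, since all flat profiles lie near each other. The other nearest genes were STARD13 and SHISA3 for SMARCD1, RXRB and PHF5A for ERGIC3, CDK6 and PLD1 for PAPPA, and BDP1 and METTL23 for ABCC2, all within 0.0224. With 4 arrays such likeness is only a description.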

How the data were processed

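The authors deposited log2 values, 1 per probe set of Affymetrix PrimeView arrays. The submitters' processing notes name RMA, which subtracts background, equalises the arrays (medians 5.15 to 5.17) and combines the probes of a set; its version is not given in the sources used here. It hides a shift of most transcripts in 1 direction and compresses dim differences. Groups and replicate numbers came from the sample titles.

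All 49293 probe sets were fitted in limma 3.58.1 (R 4.3.3; lmFit and eBayes, 2 residual and 2.73 prior degrees of freedom, no trend, block or filter), two-sided, with Benjamini-Hochberg adjustment over all of them and a threshold of 0.05. The fit was run on simulated arrays as a check of the code only, which did not cover differences as small as those of the 23 probe sets. The median standard error was 0.0842, and the number of arrays limits the precision.

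Partner genes were read at their brightest single-symbol probe set. Of these lists, up to 4 genes with the smallest p were named, the other reported targets and all 23 probe sets whatever their result, and the 2 nearest profiles per gene. Entrez IDs of 18112 genes matched the RefSeq table, whose symbols were used. Members and lists were chosen with earlier results of these data known. Levels within 0.5 log2 units were called alike. Figures used matplotlib 3.10.9. Detection calls, scan dates and 3' untranslated regions were not used here, and no batch could be tested.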

Additional observations from a re-analysis of the deposited data

How the results depend on the processing

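The counts of probe sets past the threshold, over the table, the 23 probe sets and each gene list, were 0 in all 109 counts made under other settings (quantile normalisation, median-centred arrays, a variance trend with intensity, also with a robust prior, an ordinary two-group test, probe sets above the median level, the replicate number as a block, each array left out, and 1 value per gene). The smallest adjusted p of the 23 probe sets in any of them was 0.643. At an unadjusted p under 0.05 the 23 probe sets gave 0 to 2 calls. Leaving out 1 array takes the spread from the group that still has 2.

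Signs turned in 23 of 257 single values, counted under 11 probe sets. The ABCC2 value among them was not a turn within a probe set, and the cause of the others was not tested. Quantile normalisation gave ERGIC3 11715448_at 0.019 and 11715449_x_at 0.005, and SMARCD1 11761111_at -0.0063, and centring gave ERGIC3 11754868_a_at -0.005. For ABCC2 the mean of its 2 probe sets, 0.01, was set against its brightest set 11759031_at alone, -0.08. That set stayed negative in every setting of its own. With 1 array left out, differences ranged for ERGIC3 11715448_at from -0.04 to 0.03, 11715449_x_at from -0.045 to 0.035 and 11754868_a_at from -0.03 to 0.04; for PAPPA 11727014_at from -0.255 to 0.055, 11727017_s_at from -0.24 to 0.11, 11727018_s_at from -0.145 to 0.055 and 11754579_at from -0.215 to 0.105; for HMGA2 11732032_a_at from -0.145 to 0.085 and 11761705_a_at from -0.32 to 0.09; and for SMARCD1 11761111_at from -0.02 to 0.04.

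Same-numbered arrays did not deviate together (correlation of deviations -0.084 over all probe sets), and the labels do not say that a number marks a shared preparation. With the replicate number as a block, 0 probe sets passed, with 1936 at an unadjusted p under 0.05 against 2537 without it, and 1 of the 23 against 2. Dim probe sets lie near the floor of the arrays, where differences are compressed.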
